A study of Schizosaccharomyces pombe with 2 samples.

Results

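The genes described here serve the building of the fission yeast cell wall: the synthesis, remodelling and breakdown of its glucans, and the glycosylation and lipid anchoring of wall proteins. They were measured in 1 RNA sequencing library of Schizosaccharomyces pombe cells carrying a deletion of ppr10 and 1 library of wild-type cells, both from cultures in logarithmic growth. The product of ppr10 is a pentatricopeptide repeat protein of mitochondria, and the stated aim of the submitters was to find why cells died. No strain background, further allele or culture medium is stated by the labels, also do not say how many clones each library stands for. Members were the rows of the deposited table whose protein description held the words glucan, chitin, cell wall, mannosyltransferase, galactosyltransferase or GPI anchor, without DIPSY, flocculin, spore or kinase. That gave 5 of 5076 genes, because the description was a dash for 3733 genes and a text for 1343. To compare the classes of the pathway, the same words were applied to the RefSeq product names, which gave 65 further genes. These 65 are reported apart from the 5.

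The wall of fission yeast is built mainly of beta-glucans and alpha-glucan, with an outer layer of galactomannan carried on glycoproteins. Membrane-bound synthases make the glucan chains, glucanosyltransferases lengthen and connect them, and glucanases cut them, among other places in the septum when daughter cells part. Wall proteins receive mannose in the endoplasmic reticulum and mannose and galactose in the Golgi, and many are held at the surface by a glycosylphosphatidylinositol (GPI) anchor.

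To the nearest 1000, uniquely mapped reads summed to 16885000 over the genes of the deletion library and to 17053000 over those of the wild type. The targeted gene ppr10 had 12 reads in the deletion library, against 1879 reads in the wild-type library. Levels are given as RPKM, reads per kilobase of coding length and per 1000000 reads of the library. Ratios are deletion over wild type, and their 95% intervals are exact (Clopper-Pearson), computed from both read counts of a gene and covering counting error only. Log2 differences were taken after adding a pseudocount of 1 RPKM to both values, and a gene was called higher or lower at 2-fold or more if its mean RPKM was at least 1. There was 1 library per group, so no difference could be set against the spread between cultures, no p-value was computed, and the calls describe these libraries.

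All 5 members lay between the 2-fold limits in the deletion library. By this rule 2.79% of the 4986 genes with enough signal were higher and 1.14% were lower, 3.93% together. The log2 differences of the 5 ran from −0.55 to 0.37 with a median of 0.03, while all genes together had a median of 0.05, a lower quartile of −0.17 and an upper quartile of 0.26. The ratio had an interval wholly above 1 for 2 members and wholly below 1 for 1 member. Among all genes these shares were 40.7% and 29.7%, so an interval clear of 1 is common at this depth.

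The most abundant of the 5 was knh2 (SPCC1322.10, chromosome III), listed in the table as the cell wall protein Pwp1. Its product belongs to the Kre9/Knh1 family of cell surface proteins, which in Saccharomyces cerevisiae are needed for beta-glucan synthesis. It had 13897 reads and 1043 RPKM in the deletion library, against 10859 reads and 807 RPKM in the wild-type library. By RPKM it ranked 123 of the 5076 genes in the deletion library and 192 in the wild type. The ratio was 1.29 (1.26 to 1.33), above that of the median gene and short of the 2-fold limit. The genes beside it did not share a direction: SPCC1322.09 on one side had a ratio of 1.35, and the ribosomal protein gene rpl2302 on the other had 0.562.

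The member with the largest difference was cts2 (SPAPB1E7.04c, chromosome I), described in the table as chitinase-like and in RefSeq as a chitinase, an enzyme that cuts chitin. It had 2535 reads and 40.5 RPKM in the deletion library, against 3778 reads and 59.7 RPKM in the wild-type library. The ratio was 0.678 (0.644 to 0.713), and the log2 difference was −0.55. Its level was below that of ghs2 in the deletion library and above it in the wild type. The neighbouring genes rpc82 and gde1 had ratios of 0.868 and 0.781.

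Both genes described in the table as associated with beta-glucan synthesis had nearly the same level in either library. RefSeq names the product of each a glucosidase, an enzyme that removes glucose units, and neither had a near-identical copy. The gene ghs2 (SPAC17G6.11c, chromosome I) had 1713 reads and 53.1 RPKM in the deletion library, against 1693 reads and 52.0 RPKM in the wild-type library. Its ratio was 1.02 (0.955 to 1.09). SPAC23H3.11c, also on chromosome I, was the weakest member, with 735 reads and 23.03 RPKM in the deletion library, against 791 reads and 24.5 RPKM in the wild-type library. Its ratio was 0.938 (0.848 to 1.04). A difference was not detectable at this depth in either gene.

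The remaining member, smp3 (SPAC4G8.12c, chromosome I), encodes the mannosyltransferase that adds the last mannose of the core of the GPI anchor. It had 931 reads and 34.4 RPKM in the deletion library, against 794 reads and 29.1 RPKM in the wild-type library. The ratio was 1.18 (1.08 to 1.30). Its neighbour prz1, the gene of a calcineurin-dependent transcription factor, had a larger ratio of 1.56 (1.48 to 1.64).

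Reads covered nearly the whole coding length of every member, with coverage scores between 99.5 and 99.9 in both libraries. The labels do not state whether the protocol preserved strand. In the RefSeq annotation 4 of the 5 members, all but knh2, overlap a noncoding gene on the opposite strand, over 96.5% of the coding span of SPAC23H3.11c and over 62.8% of that of cts2 for the longest. Reads from such a partner cannot be told apart from those of the gene without strand.

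**Figure D1:**
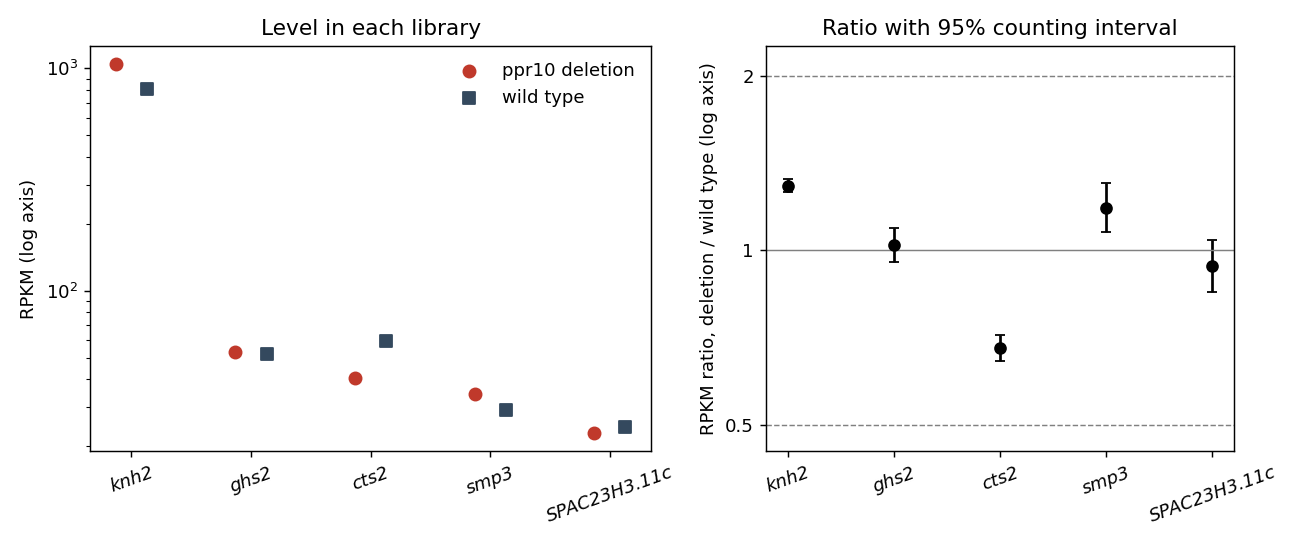
RPKM of the 5 members in the ppr10 deletion library (circles) and the wild-type library (squares) on a log axis, and the ratio of deletion to wild type with its 95% counting interval, with dashed lines at 2-fold. All 5 ratios lie inside the 2-fold limits, with cts2 at 0.678 and knh2 at 1.29 the farthest from 1.

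Among the 65 genes found by product name, 3 were higher, 2 were lower and 60 lay between, or 4.62% and 3.08% against 2.79% and 1.14% of all genes. The 3 higher were bgl2, gas2 and gma12, and the 2 lower were eng1 and SPAC212.08c. At 1.5-fold, 9 of the 65 were higher (13.8%, against 7.94% of all genes) and 3 were lower (4.62%, against 4.49%). The median log2 difference of the 65 was 0.07, close to the 0.05 of all genes. The pathway was then described by class, the 5 members counted in the class of their role.

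Beta-glucan synthesis had 5 genes, all between the limits and all with intervals wholly above 1 (40.7% of all genes had such an interval). Their log2 differences ran from 0.13 to 0.37, with a median of 0.28, and stayed positive under every scaling tried. Besides knh2, these were the synthases bgs4 and bgs3, the synthase adaptor smi1 and the regulatory factor chr4. The gene bgs4, whose synthase makes the branched beta-glucan of the wall and of the secondary septum, had 17017 reads and 172 RPKM in the deletion library, against 13493 reads and 135 RPKM in the wild-type library. That is a ratio of 1.27 (1.25 to 1.30). The ratio of bgs3, another wall synthase, was 1.22 (1.18 to 1.27), with 61.6 RPKM in the deletion library and 50.4 RPKM in the wild type. The ratio of smi1 was 1.10 and that of chr4 was 1.12. The genes ghs2 and SPAC23H3.11c, whose deposited descriptions associate them with beta-glucan synthesis, were counted in the remodelling class. Their ratios were 1.02 and 0.938, with intervals that include 1, so the common direction depends on that placement.

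Product names with the word spore were dropped by the rule, which removed 5 glucan genes that bear on these classes. One is bgs1, whose essential synthase makes the linear beta-glucan of the primary septum. It had 53.5 RPKM in the deletion library and 41.3 RPKM in the wild type, a ratio of 1.30 (1.24 to 1.35), close to those of bgs4 and knh2. The spore wall synthases bgs2, mok12 and mok14 had ratios of 1.16, 1.21 and 1.15. The endoglucanase gene eng2 had 83.5 RPKM in the deletion library and 57.1 RPKM in the wild type, a ratio of 1.46 (1.38 to 1.55). All 5 lay between the limits.

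Alpha-glucan synthesis had 3 genes, with log2 differences from 0.05 to 0.24 and a median of 0.08. The gene ags1, whose synthase makes the alpha-glucan of growing cells, had 7693 reads and 63.0 RPKM in the deletion library, against 7522 reads and 61.0 RPKM in the wild-type library. Its ratio of 1.03 (1.0004 to 1.07) was below those of the vegetative beta-glucan synthases, and its log2 difference of 0.05 became 0.00 when the libraries were scaled to the median gene. Its relatives mok11 and mok13 were expressed at a lower level, with 16.8 and 20.3 RPKM in the deletion library and 15.8 and 17.0 RPKM in the wild type. The ratio of mok13 was 1.19 (1.12 to 1.27).

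Glucan remodelling and hydrolysis was the class with the widest spread. It had 16 genes, ghs2 and SPAC23H3.11c among them. In the deletion library 2 were higher (12.5%, against 2.79% of all genes), 1 was lower (6.25%, against 1.14%), and 13 stayed inside the limits. Log2 differences ran from −1.29 to 1.55. The median was 0.00, or −0.05 with the libraries scaled to the median gene, and 8 differences were positive and 8 negative. At 1.5-fold, 5 were higher (31.2%, against 7.94% of all genes) and 2 were lower (12.5%, against 4.49%). Among the 5 was SPAC4H3.03c, which is not known as a wall enzyme.

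The largest positive difference belonged to bgl2, annotated as a glucan beta-glucosidase. It had 4066 reads and 249 RPKM in the deletion library, against 1395 reads and 84.7 RPKM in the wild-type library, a ratio of 2.94 (2.77 to 3.13). The gene gas2, of a glucanosyltransferase that lengthens beta-glucan chains, was the most abundant of all 70 genes in the deletion library. It had 32697 reads and 1403 RPKM there, against 15563 reads and 661 RPKM in the wild-type library. The ratio was 2.12 (2.08 to 2.16), so the whole interval lay above 2. In RefSeq the ribonuclease gene tri1 overlaps 90.6% of the coding span of gas2 on the opposite strand. Over its own coding length tri1 had 367 reads in the deletion library and 333 in the wild type. Reads of tri1 within gas2 cannot be told apart without strand, and their part was not tested.

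The 4 Gas genes differed among themselves. The gene gas1, whose product is the main glucanosyltransferase of growing cells, had 736 RPKM in the deletion library and 593 RPKM in the wild type, a ratio of 1.24 (1.22 to 1.27). In the wild type gas1 and gas2 were thus of like abundance, and in the deletion library gas2 stood well above gas1. The ratio of gas5 was 1.53 (1.43 to 1.65), with 74.3 RPKM in the deletion library and 48.4 RPKM in the wild type. The gene gas4, whose product is known from spore wall formation, had a ratio of 0.985 (0.932 to 1.04).

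The exoglucanase genes also differed. The gene exg3 had 85.8 RPKM in the deletion library and 52.3 RPKM in the wild type, a ratio of 1.64 (1.53 to 1.76). The ratios of exg1 and exg2 were 0.972 and 1.04, with intervals that include 1. SPAC4H3.03c, annotated as an alpha-glucosidase and not known as a wall enzyme, had 926 reads in the deletion library and 554 in the wild type, a ratio of 1.69 (1.52 to 1.88).

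The enzymes that open the septum lay on the other side. The gene eng1, of the endoglucanase that degrades the primary septum, had 2501 reads and 48.5 RPKM in the deletion library, against 6256 reads and 120 RPKM in the wild-type library. The ratio was 0.404 (0.385 to 0.423), wholly below 0.5. The gene agn1, of the endo-alpha-glucanase that dissolves the wall around the septum edge, had 2699 reads and 125 RPKM in the deletion library, against 4110 reads and 189 RPKM in the wild-type library. Its ratio was 0.663 (0.632 to 0.696). Opposite-strand genes are annotated for 55 of 66 genes checked, the 5 members among the 66. Other genes named here, such as gas5 and exg3, are not in this count. The longest one is noncoding and covers 94.8% of the coding span for eng1, 54.3% for bgl2, 98.6% for SPAC4H3.03c, 53.4% for omh1, 62.8% for cfh1 and 23.4% for gma12, and reads of these pairs cannot be told apart either. The same limit holds for genes named below, such as mid2, sbg1, imt2 and rga4 (100% each), pek1 (77.9%) and wsc1 (70.0%), and for gas1 (87.7%). For hut1 the partner is the coding gene usp107, over 25.8%.

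**Figure D2:**
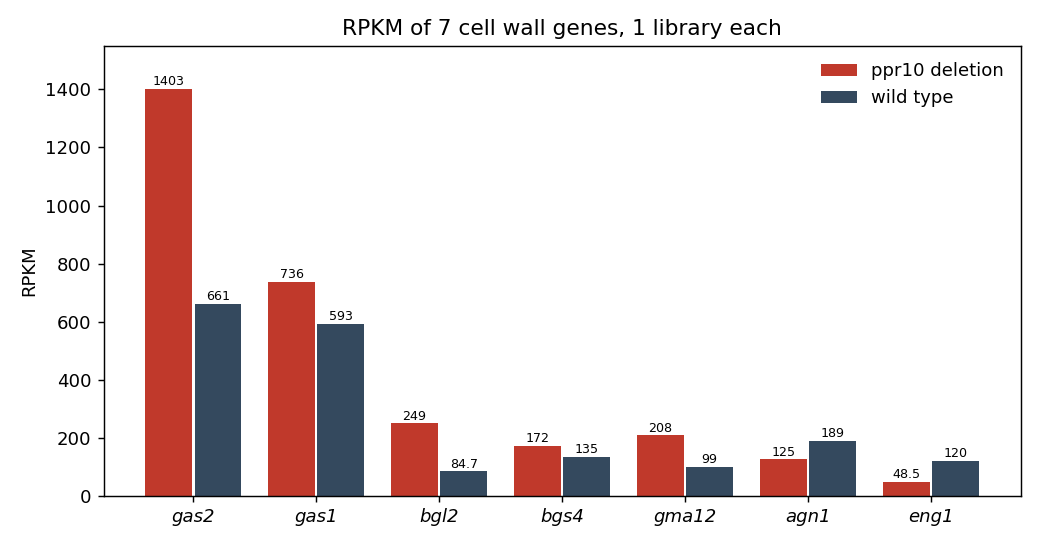
RPKM of 7 cell wall genes in the ppr10 deletion library (left bar of each pair) and the wild-type library (right bar), 1 library each, so there are no error bars; the genes were chosen after their values were seen. In the deletion library gas2 stands at 1403 and bgl2 at 249, above 661 and 84.7 in the wild type, while eng1 stands at 48.5, below 120 in the wild type.

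Genes of cell separation, the opening of the septum at the end of division, were listed as well. Of these, eng1, agn1 and cfh4 also belong to the 65 genes found by product name. Of the 10 genes reported, eng1 was lower (1.14% of all genes were) and 9 stayed inside the limits. Their median log2 difference was −0.26, against 0.05 for all genes. The interval lay wholly below 1 for 7 of the 10 (29.7% of all genes) and wholly above 1 for 3 (40.7% of all genes). At 1.5-fold, 3 were lower (4.49% of all genes) and none was higher (7.94%). The list was chosen with earlier results of these data known, so these shares are a description only.

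The 10 genes gave a graded picture. After eng1, ratios were 0.650 (0.624 to 0.677) for adg2, 0.663 for agn1, and 0.729 (0.708 to 0.750) for mid2, whose product organises the septin ring. The ratios of adg1, adg3 and cfh4 were 0.810, 0.856 and 0.864. The 3 genes above 1 were sep1, a forkhead transcription factor gene (1.08), rgf3, of an activator of the GTPase Rho1 (1.13), and sbg1, whose product works with Bgs1 at the septum (1.40, 1.28 to 1.52). The share of cells in division was not measured in these libraries, and its part in these values was not tested.

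**Figure D3:**
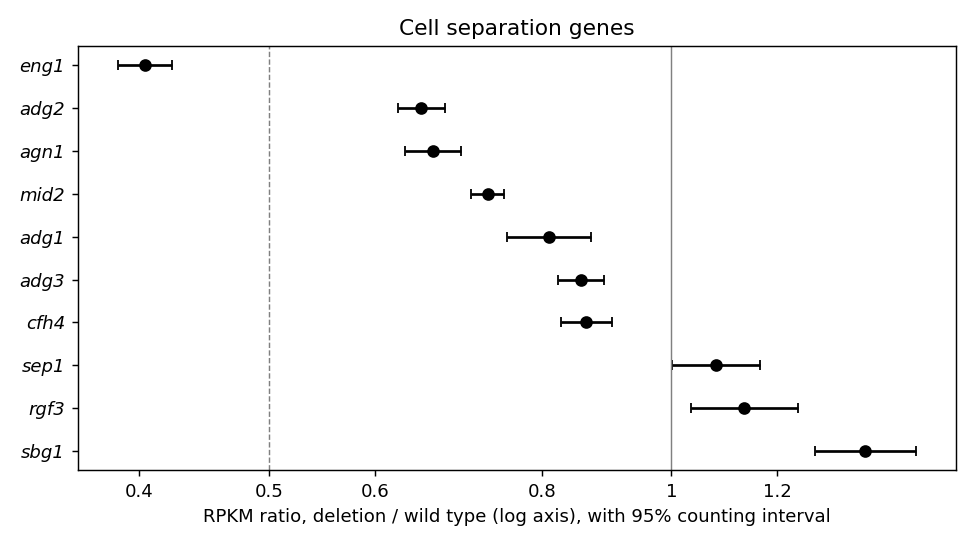
Ratio of RPKM in the ppr10 deletion library to the wild-type library for the 10 genes listed for cell separation, on a log axis, with 95% counting intervals and a dashed line at 0.5. The points run from 0.404 for eng1 to 1.40 for sbg1, and 7 of 10 intervals lie wholly below 1.

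Chitin synthesis and turnover had 7 genes, cts2 included, all between the limits, with log2 differences from −0.55 to 0.61 and a median of 0.16. The largest positive one was that of cfh1, a gene related to regulators of chitin synthase. It had 2647 reads and 56.0 RPKM in the deletion library, against 1729 reads and 36.2 RPKM in the wild-type library, a ratio of 1.55 (1.45 to 1.64). The chitin synthase gene chs1 had 32.8 RPKM in the deletion library and 26.0 RPKM in the wild type, a ratio of 1.26, while the related chs2 had 8.43 RPKM in the deletion library and 10.7 RPKM in the wild type, a ratio of 0.787. All 7 intervals excluded 1, with 4 above and 3 below (40.7% and 29.7% of all genes), so the class had no common direction.

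GPI anchor synthesis had 5 genes, smp3 included, all between the limits, with a median log2 difference of 0.20. Mannosyltransferases that act before Smp3 are encoded by gpi14, gpi18 and the partner subunit gene pga1. Their ratios were 1.01 (0.954 to 1.07), 1.15 (1.08 to 1.22) and 1.19 (0.997 to 1.42). The gene gpi7, whose product adds a side group to the mannose core, had 46.1 RPKM in the deletion library and 51.7 RPKM in the wild type, a ratio of 0.893 (0.837 to 0.952).

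The class of protein O-mannosyltransferases had 3 genes, all with small differences. The 3 transferases of the endoplasmic reticulum had log2 differences of 0.10 (ogm1), −0.03 (ogm2) and −0.10 (ogm4). Their levels were 147, 148 and 59.8 RPKM in the deletion library, and 137, 152 and 64.1 RPKM in the wild type.

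N-glycan and Golgi mannosyltransferases, 16 genes with the dolichol-phosphate-mannose synthase subunits, all lay between the limits. Their median log2 difference was 0.02, or −0.03 when the libraries were scaled to the median gene. The genes that build the lipid-linked N-glycan in the endoplasmic reticulum, alg1, alg2, alg9, alg11 and alg12, had ratios between 1.001 and 1.05. In the same pathway alg3 had 0.819 (0.745 to 0.900). The 2 largest differences belonged to Golgi enzymes. The gene omh1, of an alpha-mannosyltransferase that extends mannose chains, had 4041 reads and 204 RPKM in the deletion library, against 2582 reads and 129 RPKM in the wild-type library, a ratio of 1.58 (1.504 to 1.66). The gene och1, which starts the outer chain of N-glycans, had 60.8 RPKM in the deletion library and 42.0 RPKM in the wild type, a ratio of 1.45 (1.33 to 1.58).

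Galactosyltransferases, which add the galactose that marks fission yeast glycans, had 11 genes with a median log2 difference of 0.16. Of these, 1 was higher (9.09%, against 2.79% of all genes) and 10 lay between. The one was gma12, of a Golgi enzyme that puts galactose on mannose chains, with 3970 reads and 208 RPKM in the deletion library, against 1905 reads and 99.0 RPKM in the wild-type library. The ratio was 2.10 (1.99 to 2.22), an interval that includes 2. The related gmh genes had smaller differences: the ratio of gmh1 was 1.63 (1.32 to 2.01) and that of gmh3 was 1.30 (1.18 to 1.44), while gmh2, gmh4, gmh5 and gmh6 had ratios between 0.921 and 1.16.

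A remainder of 4 genes carried the words of the rule without a known part in the wall. The 3 inositol phosphorylceramide or related mannosyltransferase genes had ratios of 1.27 (imt1), 1.49 (imt2) and 0.993 (imt3). SPAC212.08c had 7 reads in the deletion library and 40 in the wild type, a ratio of 0.177 (0.0668 to 0.399). It is annotated as a GPI anchored protein, and it has a near-identical copy, so its value is uncertain.

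**Figure D4:**
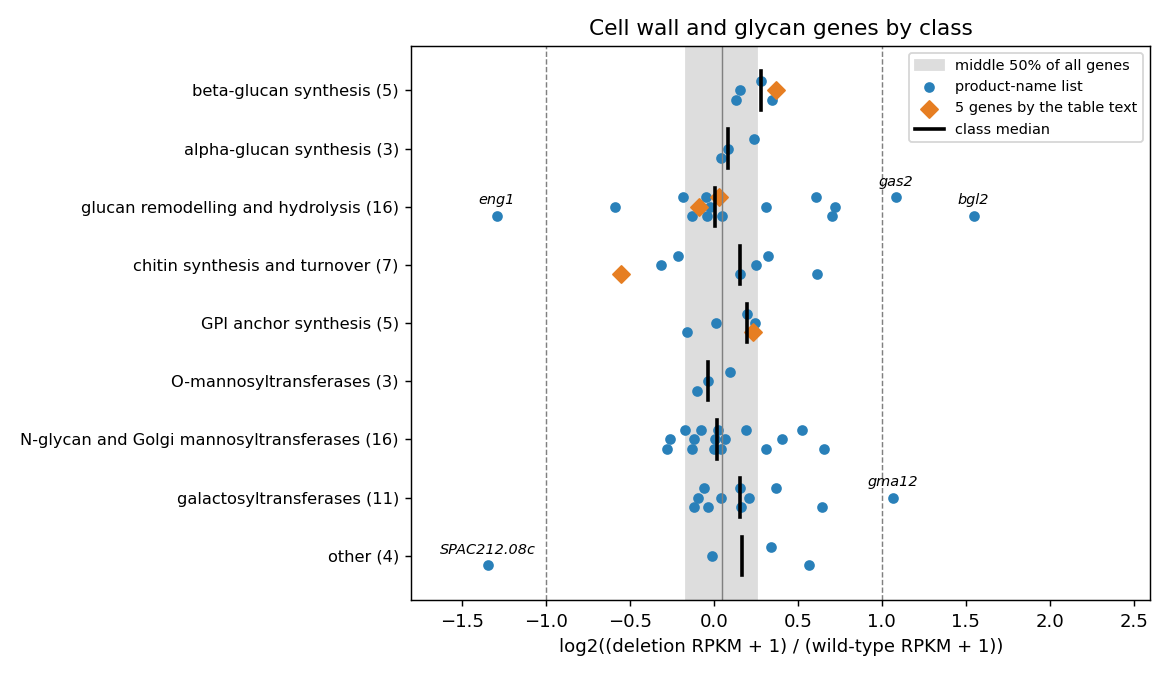
Log2 difference of each of the 70 wall and glycan genes by class, the 5 members as diamonds and the 65 genes found by product name as circles, with class medians as black bars, the middle 50% of all genes shaded, and dashed lines at 2-fold. Only bgl2, gas2 and gma12 lie at or above the upper limit and only eng1 and SPAC212.08c at or below the lower one, and the remodelling class spreads from −1.29 to 1.55.

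The supply of activated sugars and the signalling that watches over the wall were listed as well. Of 15 genes for sugar nucleotides and lipid-linked sugars, 1 was higher (6.67%, against 2.79% of all genes) and 14 stayed inside the limits. The median log2 difference was 0.19. Among the 15, dpm1, dpm2 and dpm3 also belong to the 65 genes found by product name. The one was gal10, a UDP-glucose epimerase gene, with 500 reads and 13.8 RPKM in the deletion library, against 204 reads and 5.58 RPKM in the wild-type library, a ratio of 2.48 (2.10 to 2.93). In RefSeq it is overlapped over 95.1% of its coding span by tgd1 on the opposite strand. That overlap of 2037 bases is longer than the 1098 bases over which tgd1 was counted. Over those bases tgd1 had 128 reads in the deletion library and 53 in the wild type, a ratio of 2.44. Reads of tgd1 within gal10 cannot be told apart without strand. The phosphoglucomutase gene pgm1 had 328 RPKM in the deletion library and 242 RPKM in the wild type, a ratio of 1.36, and mpg1, which makes GDP-mannose, had 1320 RPKM in the deletion library and 1089 RPKM in the wild type, a ratio of 1.21. The glucosamine-phosphate acetyltransferase gene gna1 had 177 reads in the deletion library and 112 in the wild type, a ratio of 1.60 (1.25 to 2.04). With 38 reads in the deletion library and 28 in the wild type, dpm2 had an interval from 0.819 to 2.32. Counting intervals stayed under 1 in 4 genes of this list and exceeded 1 throughout in 8. The 4 were the transporter gene hut1 with a ratio of 0.816, dpm1 with 0.833 (0.791 to 0.878), and 2 more. Those were the epimerase gene uge1 with 0.839 (0.802 to 0.877) and the phosphomannomutase gene pmm1 with 0.873 (0.849 to 0.896). The supply genes thus had no common direction.

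All 19 cell integrity genes lay between the limits. Their median log2 difference was 0.18, and 14 of the 19 differences were positive, as were 2845 of the 4986 of all genes. The mitogen-activated protein kinase cascade of this pathway is Mkh1, Pek1 and Pmk1. The ratios of their genes were 1.41 (1.33 to 1.502), 1.30 (1.22 to 1.38) and 1.16 (1.10 to 1.22). Upstream, the wall sensor gene wsc1 had 158 reads in the deletion library and 112 in the wild type, a ratio of 1.42 (1.11 to 1.83), the protein kinase C gene pck1 had a ratio of 1.24 and the GTPase-activating protein gene rga4 1.26. Not all upstream genes had ratios above 1. The other wall sensor gene, mtl2, had a ratio of 0.959 (0.903 to 1.02), and rho1, of the GTPase that activates beta-glucan synthase, had 0.978 (0.946 to 1.01). The ratios of rgf1 and rho4 were both 1.001, and that of the GTPase-activating protein gene rga2 was 0.878 (0.827 to 0.933). The lowest was rnc1, whose product binds the mRNA of the phosphatase that turns the cascade off, with 69.5 RPKM in the deletion library and 91.3 RPKM in the wild type, a ratio of 0.762 (0.710 to 0.817). The kinase phosphatase gene pmp1 had a ratio of 0.832 (0.743 to 0.932). Intervals lay wholly above 1 for 11 of the 19 (57.9%, against 40.7% of all genes) and wholly below 1 for 3 (15.8%, against 29.7%).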

How the data were processed

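Libraries were prepared from Trizol-extracted total RNA with a NEBNext Ultra kit, per the labels' protocols. The submitters' processing notes list Bowtie2 2.2.3, TopHat2 2.0.12 and the build ASM294v2; the step that made each value, any filter and the strand setting were not found in the sources used here. Per the file headers, the deposited table gives whole counts of uniquely mapped reads, RPKM values and a coverage score per gene. The counts summed to the column totals in the headers. The authors' RPKM values equal reads per coding length and column total, with a largest difference of 4.99e-07 on recomputation. The deposited coverage score exceeds 100 in 7 genes and was used only as a description. A dash was read as 0.

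Calls used log2 of RPKM with a pseudocount of 1, at 2-fold and a mean RPKM of at least 1, with intervals from scipy 1.17.1. The script was tested on simulated data. TMM factors from edgeR 4.0.16 served as an alternative scaling. Names, products, gene order, overlaps and near-identical copies (blastn 2.17.0, at least 95% identity over 100 bases) came from RefSeq assembly ASM294v3, a later build, so no coordinates or sequences are given and promoter letters were not searched. Of 5076 identifiers, 5049 matched. Members, lists and classes were chosen with earlier results of these data known, and the product-name list was added because few rows carried a description. Rules for full values covered members, genes past 2-fold, the 4 largest differences and 2 highest levels per class, and up to 6 genes per list; other genes named were chosen after their values were seen. Of the listed symbols, sec53 did not match. One gene of the cell separation list is not reported here.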

Additional observations from a re-analysis of the deposited data

How the results depend on the processing

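All alternatives were planned. The 5 members gave no call under any of the 12 alternatives, and their median stayed within the counting interval. Calls of bgl2, gas2 and eng1 held under each pseudocount and scaling. With gma12, the interval rule (wholly beyond 2-fold) left 0 galactosyltransferases higher. Of the 65 genes, 1 in place of 2 was lower with a pseudocount of 5 RPKM, at a mean RPKM of at least 5, without genes of another function and without near-identical copies; the one that dropped out was SPAC212.08c, so the remainder class then had 0 lower, and its median was 0.34 at a mean of at least 5 or without copies. With a pseudocount of 5, gal10 fell below the limit (0.83) and 0 sugar supply genes were higher. At 1.5-fold, the 65 had 9 higher, remodelling 5 higher and 2 lower, chitin 1 higher, N-glycan and Golgi 1 higher, galactosyltransferases 2 higher, sugar supply 2 higher and cell separation 3 lower. Scaling to the median gene (median-of-ratios factors) lowered the median of all genes by 0.05 and each difference by a like or smaller amount, turning the medians of the members (−0.02), remodelling (−0.05) and N-glycan genes (−0.03) negative, and TPM turned that of the O-mannosyltransferases positive (0.01). Of 396 values of single genes, 371 stayed within counting error and 25 moved, with none reversed among the called. Depth limits the weakest genes, such as dpm2. No paired analysis was possible because the design has a single library of each genotype, so replicates could not be left out either.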
